A study of Mus musculus with 6 samples.

Results

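Mitochondrially encoded transcripts were followed in primary oviductal muscle cells of pregnant mice with and without the chromatin remodeling subunit PBRM1. The set held 10 genes: mt-Nd1, mt-Nd2, mt-Nd4 and mt-Nd5 of complex I, mt-Cytb of complex III, mt-Co1 and mt-Co3 of complex IV, mt-Atp6 of complex V, and the ribosomal RNAs mt-Rnr1 and mt-Rnr2. They were the rows of the deposited count table that map to these symbols on chromosome M, 10 of 54232 genes and 10 of the 37 genes listed on that chromosome. WT was compared with Pbrm1 cKO, with 3 libraries in each group, all from day 2 of pregnancy in mice of 8 to 12 weeks mated with stud males. The labels call the controls WT, whereas the study's legends name Pbrm1 fl/fl mice. The cKO mice carried floxed Pbrm1 and a cre recombinase expressed from the progesterone receptor locus, which deletes Pbrm1 in cells that express that receptor. Oviducts were digested, the filtered cells were plated for 4 h and kept in new medium for a further 2 h before RNA was taken. Whether each library came from 1 mouse or from a pool is not given in the labels, so p-values measure the spread between these libraries.

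Mitochondrial DNA is a small circular genome kept in many copies per cell. It encodes core subunits of the respiratory chain and of ATP synthase together with the rRNAs and tRNAs that translate them, and most of its genes are cut from long polycistronic transcripts made by the polymerase POLRMT. All other respiratory subunits and all proteins that copy, transcribe and process mitochondrial DNA come from nuclear genes. Stretches of mitochondrial DNA have also been inserted into nuclear chromosomes, and some of these copies are annotated as pseudogenes with the same sequence as the gene itself.

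Libraries held 15390818 to 18947947 counts assigned to genes, and the ranges of the groups overlapped. Pbrm1, the targeted gene, was at 170, 183 and 172 CPM (counts scaled to library size, with TMM factors) in WT replicates 1 to 3 and at 43.4, 50.6 and 42.7 CPM in cKO replicates 1 to 3, 26.0% of the WT mean. Summed smooth muscle markers, led by Tagln, stood at 3368 to 3432 CPM in WT and 4122 to 4585 CPM in cKO. RNA of the labelled cell type was thus present, and the sum of its markers was higher in cKO. Leukocyte markers summed to 662 to 717 and 925 to 998 CPM (7 of 8 higher in cKO), fibroblast markers to 5010 to 5731 and 6918 to 7420 CPM (4 of 7 higher, 1 lower) and epithelial markers to 757 to 825 and 894 to 997 CPM (5 of 7 higher), in WT and cKO respectively. Endothelial markers summed to 316 to 330 and 238 to 248 CPM (1 of 4 lower). The lower one was Kdr (means of 181.5 and 99.3 CPM), and Pecam1, Cdh5 and Emcn were not called. Mesothelial markers summed to 155 to 162 and 123 to 128 CPM (2 of 4 lower), and erythroid markers to 1.93 to 2.12 and 0.0643 to 0.281 CPM (1 tested, lower), with Hba-a2 and Hbb-bt at 3 counts or fewer in every library. Of the smooth muscle markers 4 of 6 were higher and 1, Smtn, was lower (136 CPM in WT, 111 CPM in cKO). Cnn1 was not called (62.0 and 60.8 CPM). Over all genes tested, 21.9% were called higher and 21.8% lower (edgeR, adjusted p under 0.05), so 1 of 4 endothelial markers is near that share. The erythroid marker tested, Hbb-bs, was at 0 to 0.225 CPM in cKO, below the filter level of 0.5743 CPM. It passed through the WT libraries alone, and its call adds no support. The part of these other cell types in the values that follow was not tested, and in bulk samples fewer cells of a type and less RNA per cell cannot be told apart.

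Several members share their sequence with nuclear copies, and 4 of these copies are shown beside the genes they match because exact matches decide which reads can be placed. Sequences are from the GENCODE M21 transcripts of GRCm38, 5′ to 3′ in the sense of the mitochondrial gene, with capitals at the bases that differ between gene and copy. The first 80 bases of mt-Atp6 (chrM:7927-8006, plus strand) and of its copy Gm10925 (chr1:24614572-24614651, minus strand) are the same at every base.
mt-Atp6: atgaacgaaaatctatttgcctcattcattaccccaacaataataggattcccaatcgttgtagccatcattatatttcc
Gm10925: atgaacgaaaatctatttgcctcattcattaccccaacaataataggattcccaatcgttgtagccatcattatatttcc
A stretch of mt-Co1 (chrM:6592-6671, plus strand) has the same 80 bases in Gm29216 on chromosome 1 (chr1:24615907-24615986, minus strand). Gm13340 on chromosome 2 (chr2:22588304-22588383, minus strand) differs by G1293A, A1334C and C1344T, counted from 1 at the first base of mt-Co1, and these are the capitals.
mt-Co1: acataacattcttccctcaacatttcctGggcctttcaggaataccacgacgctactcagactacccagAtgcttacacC
Gm29216: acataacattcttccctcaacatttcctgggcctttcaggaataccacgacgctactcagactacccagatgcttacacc
Gm13340: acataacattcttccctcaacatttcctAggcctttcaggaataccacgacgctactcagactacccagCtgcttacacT
A copy of mt-Nd5 (chrM:12884-12963, plus strand), Gm4076 on chromosome 13 (chr13:85126998-85127077, minus strand), differs in the stretch shown by A1149G, G1164A and G1216A, counted from the first base of mt-Nd5.
mt-Nd5: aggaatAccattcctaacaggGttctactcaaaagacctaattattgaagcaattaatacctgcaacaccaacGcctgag
Gm4076: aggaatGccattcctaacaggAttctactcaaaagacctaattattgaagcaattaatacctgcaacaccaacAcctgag

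Among annotated transcripts, 11 nuclear copies matched 9 mitochondrial genes at 95% identity or more over at least 100 bases, and 7 of them copied 6 of the 10 members. Of the 11 copies, 7 lie side by side on the minus strand of chromosome 1 (chr1:24611535-24616197, GRCm38, 4663 bases), from a part of mt-Co1 to a part of mt-Nd4. Default featureCounts leaves out reads that align to several places, so a read that fits gene and copy equally well is not counted for either. Windows of 50 bases measured how much of each member such reads could come from. An exact annotated nuclear copy existed for 99.9% of the windows of mt-Co3, 99.5% of those of mt-Atp6, 62.2% of those of mt-Nd4 and 51.1% of those of mt-Co1. The share was 8.19% for mt-Nd2, 7.61% for mt-Nd5, 1.04% for mt-Rnr2 and 0 for mt-Nd1, mt-Cytb and mt-Rnr1. The read length of these oviductal libraries is not given in the sources used here. For the RNA libraries of its uterine stromal cells, the study states single-end reads of 50 bases. With windows of 100 bases the share was 30.8% for mt-Co1, 60.8% for mt-Nd4, 3.19% for mt-Nd2, 0 for mt-Nd5 and mt-Rnr2, and 99.9% and 99.5% again for mt-Co3 and mt-Atp6. Copies outside annotated transcripts were not searched.

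The level per length differed widely among the 10 members, and the lowest were those with nearly all windows copied. In WT, mt-Rnr2 stood at 45471 ± 542 CPM per kb (SD, n = 3) and mt-Rnr1 at 5787 ± 770 CPM per kb. Of the protein-coding members, mt-Nd1 followed at 1231 ± 99.1, mt-Co1 at 1019 ± 43.4, mt-Cytb at 568 ± 36.4, mt-Nd2 at 198 ± 16.7, mt-Nd5 at 83.2 ± 4.79 and mt-Nd4 at 80.7 ± 3.30 CPM per kb. The neighbours mt-Nd5 (79.5 to 88.6 CPM per kb) and mt-Nd4 (76.9 to 82.9 CPM per kb) overlapped, and mt-Nd1 and mt-Co1 overlapped in cKO but not in WT. At the low end, mt-Co3 had 1.30 ± 0.153 CPM per kb and mt-Atp6 was listed at 1 to 9 counts in every library, although both belong to the same transcription unit as mt-Co1. Per 1000 windows of 50 bases without a copy, the WT level of mt-Co1 (2154 CPM) was above that of mt-Nd1 (1297 CPM), and mt-Nd4 (221 CPM) was close to mt-Nd2 (227 CPM) and above mt-Nd5 (92.6 CPM), so the order of the protein-coding members changed with the length used. With 100-base windows mt-Co1 (1575 CPM) was above mt-Nd1 (1373 CPM) by less.

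**Figure D1:**
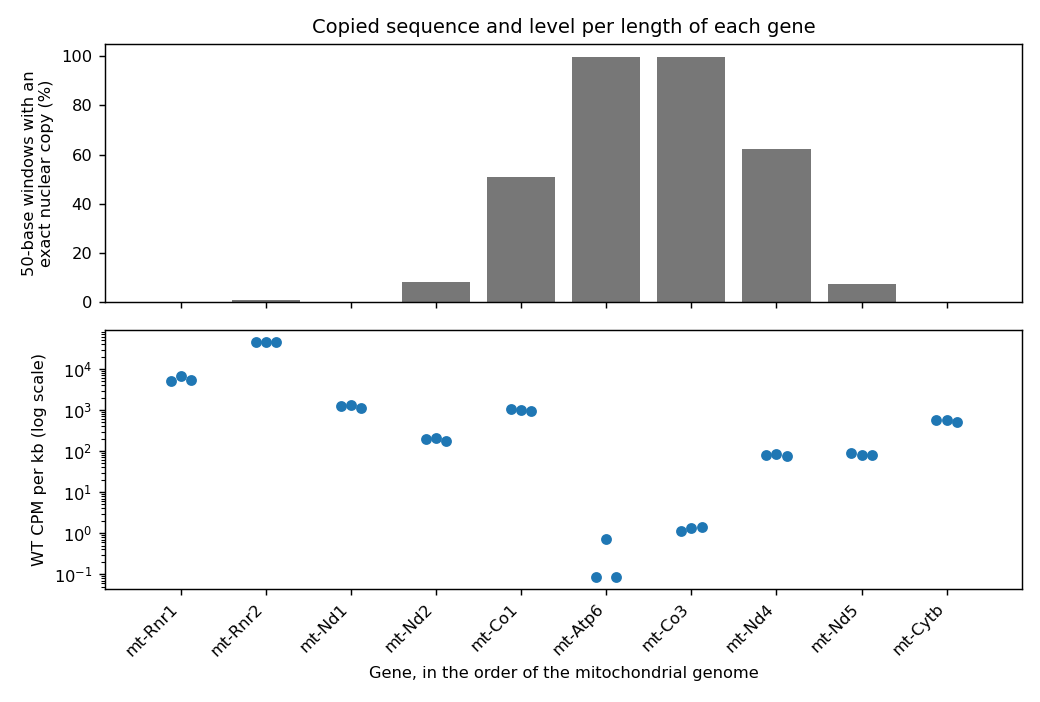
The upper panel gives the percentage of 50-base windows of each of the 10 genes that have an exact copy in an annotated nuclear transcript, and the lower panel gives CPM per kb on a log scale, 1 point per WT library, with genes in the order of the mitochondrial genome. The genes with nearly all windows copied, mt-Atp6 at 99.5% and mt-Co3 at 99.9%, are the lowest points of the lower panel.

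In Pbrm1 cKO cells, 9 of the 10 members passed the filter on low counts and all 9 were lower than in WT (edgeR quasi-likelihood test, adjusted p under 0.05), where 21.8% of the 15376 genes tested were called lower and 43.7% were called in either direction. With mt-Co3 (-0.78) left aside, the member differences ran from -0.15 for mt-Rnr2 to -0.60 for mt-Nd4 on the log2 scale. The median over the 9 was -0.47 against 0.00 over all genes tested. In 8 of the 9, mt-Co3 among them, every cKO library was below every WT library, which was so for 26.9% of all genes. The untested member was mt-Atp6, and mt-Co3 passed the filter with 3 WT libraries but only 2 cKO libraries at the required level. It was thus admitted through the group where it was higher, and its call adds no support. With at least 10 counts asked of every library, mt-Co3 was not tested and 7 of 8 members were lower. Of all 14069 genes tested that way, 22.4% were lower. The 10 genes come from 1 genome and mostly from 1 transcript, so they are not independent measurements.

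**Figure D2:**
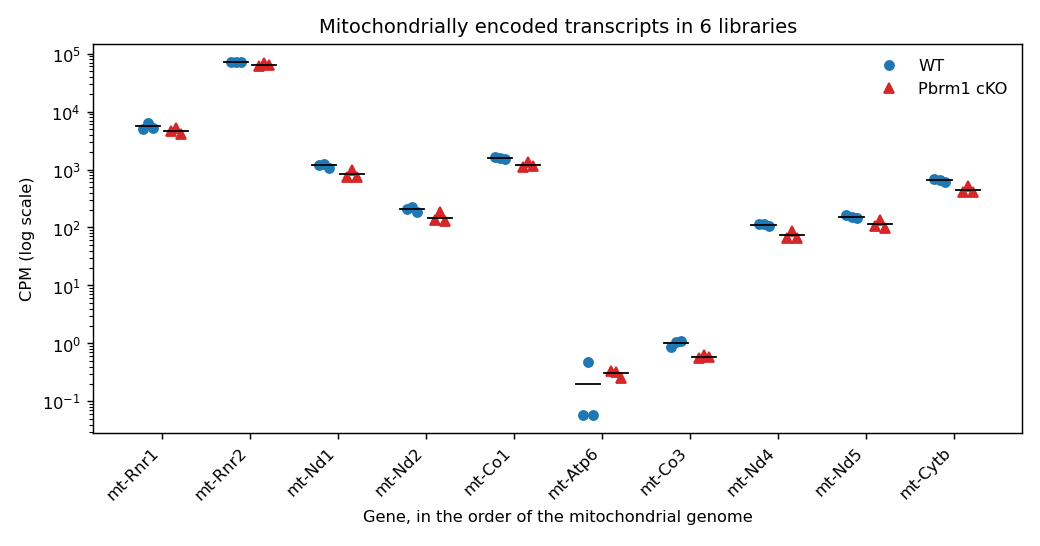
CPM of each of the 10 mitochondrial genes on a log scale, 1 circle per WT library and 1 triangle per Pbrm1 cKO library, in replicate order from left to right, with a line at each group mean. Genes are in the order of the mitochondrial genome. The groups overlap for mt-Rnr1 and mt-Atp6, and cKO replicate 2 is the highest cKO library for every gene except mt-Atp6.

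The complex I members encode membrane-arm subunits of NADH dehydrogenase, which passes electrons from NADH to ubiquinone. mt-Nd1 (chrM:2751-3707, plus strand) was at 1194, 1264 and 1076 CPM in WT replicates 1 to 3 and at 738, 991 and 739 CPM in cKO replicates 1 to 3. The groups did not overlap, and cKO replicate 2 lay nearest to WT. The cKO mean was 69.8% of the WT mean, a log2 fold change of -0.52 (SE 0.0951, adjusted p = 0.00062). mt-Nd2 (chrM:3914-4951) also had its highest cKO value in replicate 2, with 208, 222 and 187 CPM in WT against 132, 184 and 129 in cKO. Its cKO replicate 2 was just under WT replicate 3, and the log2 fold change was -0.47 (SE 0.107, adjusted p = 0.00294). mt-Nd4 (chrM:10167-11544) had 113, 114 and 106 CPM in WT against 65.9, 86.7 and 66.8 in cKO. Here the groups were well apart, and its log2 fold change of -0.60 (SE 0.0848, adjusted p = 7.3e-05) was lower than that of all but 6.56% of the genes tested. mt-Nd5 (chrM:11742-13565) was at 162, 149 and 145 CPM in WT against 107, 135 and 98.6 in cKO. All of its cKO libraries were lower than its WT libraries, with a log2 fold change of -0.42 (SE 0.0891, adjusted p = 0.0019).

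mt-Cytb (chrM:14145-15288), the cytochrome b subunit that carries the ubiquinol sites of complex III, had 676, 672 and 601 CPM in WT against 417, 519 and 403 in cKO. No annotated nuclear copy of this gene was found and the groups did not overlap. The cKO mean was 68.7% of WT, a log2 fold change of -0.54 (SE 0.0803, adjusted p = 0.000112). mt-Co1 (chrM:5328-6872), the catalytic subunit of cytochrome c oxidase, was at 1639, 1580 and 1505 CPM in WT against 1107, 1336 and 1141 in cKO. It was the protein-coding member with the most counts, and all 3 cKO libraries were below WT. Its log2 fold change was -0.40 (SE 0.064, adjusted p = 0.00022). The calls of mt-Nd1, mt-Nd2, mt-Nd4, mt-Nd5, mt-Cytb and mt-Co1 held in each of the 16 alternatives run.

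mt-Co3 (chrM:8607-9390), another core subunit of cytochrome c oxidase, had only 15, 20 and 19 counts in WT against 10, 12 and 9 in cKO. The groups did not overlap at this depth, but the 95% interval of its log2 fold change of -0.78 ran from -1.42 to -0.14 (adjusted p = 0.0477), and the call was lost in 12 of 15 alternatives. Its copy Gm28437, identical over 783 bases, held 1861, 2127 and 1794 counts in WT against 1859, 2037 and 1606 in cKO. With gene and copy added, the log2 fold change was -0.06 (SE 0.0474, 95% interval -0.17 to 0.04, adjusted p = 0.312). mt-Atp6 (chrM:7927-8607), the proton channel subunit of ATP synthase, was at 1, 9 and 1 counts in WT against 6, 6 and 4 in cKO, too few to compare. Its copy Gm10925 held 827, 972 and 882 counts in WT against 704, 873 and 566 in cKO, and gene and copy added gave a log2 fold change of -0.31 (SE 0.0773, adjusted p = 0.00529). In these genes the member itself held 0.113% to 1.05% of the counts of gene and copies together.

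**Figure D3:**
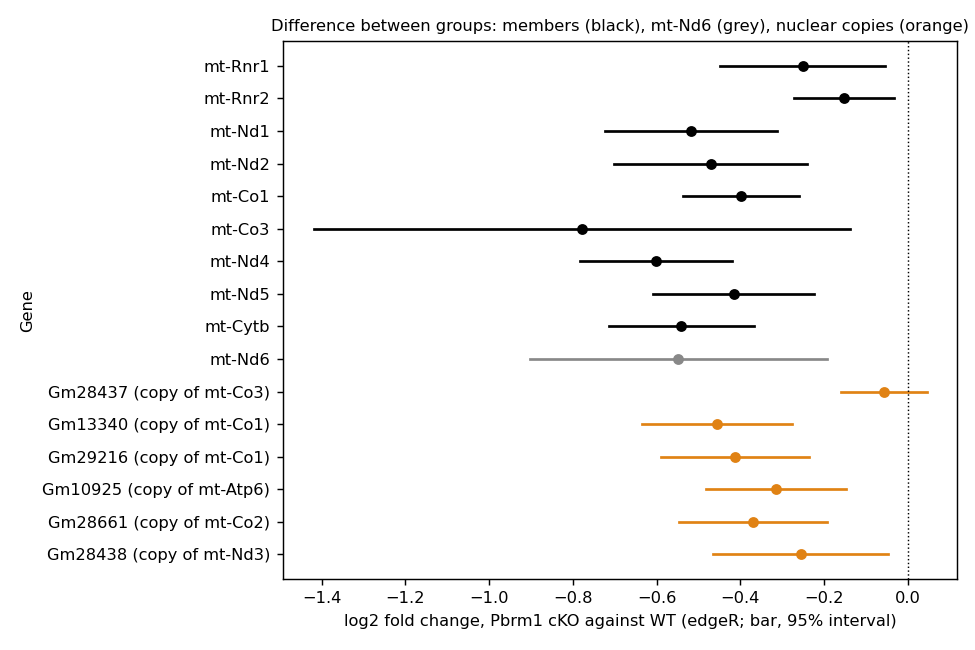
Log2 fold change of Pbrm1 cKO against WT with its 95% interval from edgeR for the 9 tested members (black), for mt-Nd6 (grey) and for the 6 nuclear copies with the most counts (orange). A dotted line marks no difference. The interval of mt-Co3 is the widest, and that of its copy Gm28437 crosses the line.

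The rRNAs are parts of the small (mt-Rnr1, 12S) and large (mt-Rnr2, 16S) subunits of the mitochondrial ribosome, and they had the smallest differences of the 9 tested members. mt-Rnr1 (chrM:70-1024) was at 5043, 6372 and 5163 CPM in WT against 4706, 5185 and 4039 in cKO. The groups overlapped, since cKO replicate 2 was above WT replicates 1 and 3, and the highest library was WT replicate 2. Its log2 fold change was -0.25 (SE 0.0917, adjusted p = 0.0396). Without WT replicate 2 it was -0.14 (adjusted p = 0.236) and without cKO replicate 3 it was -0.16 (adjusted p = 0.15), and the call was also lost without cKO replicate 1 (0.0868) and with DESeq2 (0.211). mt-Rnr2 (chrM:1094-2675) was at 70947, 72492 and 72366 CPM in WT against 60843, 69918 and 63343 in cKO. The groups did not overlap, with cKO replicate 2 close to WT, and the log2 fold change was -0.15 (SE 0.0551, adjusted p = 0.0377), a cKO mean of 89.9% of WT. Its call was lost without WT replicate 2 (adjusted p = 0.134), WT replicate 3 (0.0916), cKO replicate 1 (0.194) or cKO replicate 3 (0.104). It was also lost with library size as the only scaling (adjusted p = 0.0547) and with at least 10 counts asked of every library (0.061).

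As a share of each library, the 10 members took 7.95%, 8.24% and 8.08% of all counts in WT and 6.87%, 7.81% and 7.08% in cKO. The means were 8.09% ± 0.146 and 7.25% ± 0.491 (SD, n = 3), and the groups did not overlap (two-sided exact permutation test, p = 0.1, the smallest that 3 against 3 can give). mt-Rnr2 alone made up 87.5% to 90.5% of the member counts, so the share was largely that of 1 rRNA. The 8 protein-coding members took 0.397%, 0.398% and 0.361% of all counts in WT and 0.259%, 0.324% and 0.261% in cKO. Library preparation included a step that removes targeted transcripts, whose targets the labels do not name, and its part in the rRNA counts was not tested.

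The ratio of protein-coding to rRNA counts was lower in all 3 cKO libraries than in any WT library. For every 100 rRNA counts there were 5.25, 5.07 and 4.67 protein-coding counts in WT and 3.92, 4.33 and 3.83 in cKO. The log2 ratio was lower by 0.31 in cKO (-4.32 ± 0.087 against -4.64 ± 0.095, SD, n = 3) with no overlap, at an exact permutation p = 0.1, which is again the smallest possible, and both exact tests had an adjusted p of 0.1. This ratio uses no scaling between libraries. Against mt-Rnr1 alone the difference was -0.23 and the groups overlapped, and against mt-Rnr2 alone it was -0.32 with no overlap.

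**Figure D4:**
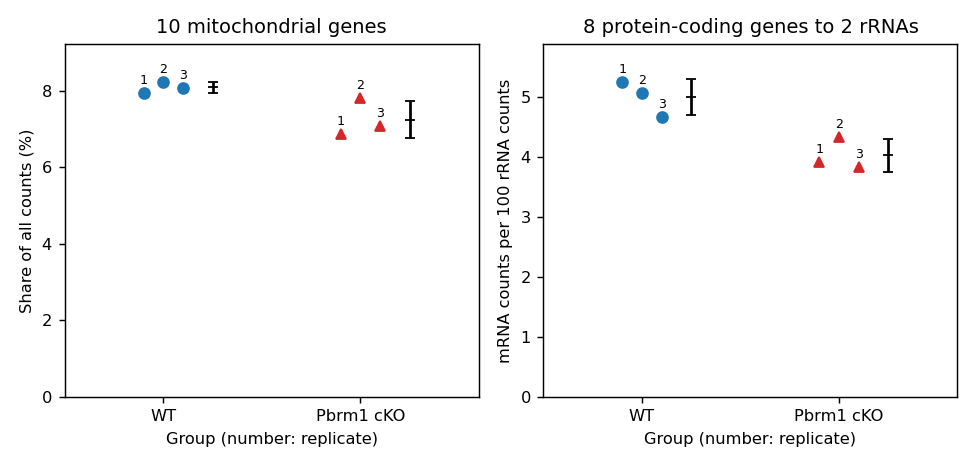
The left panel gives the percentage of all counts taken by the 10 mitochondrial genes and the right panel the counts of the 8 protein-coding genes per 100 counts of mt-Rnr1 and mt-Rnr2, 1 point per library with its replicate number, and the mean with SD (n = 3) as a bar beside each group. Both axes start at 0. In both panels all 3 cKO libraries lie below all 3 WT libraries, and cKO replicate 2 is the highest of the cKO libraries.

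In the make-up of the protein-coding counts the groups overlapped for 6 of the 8 genes. mt-Co1 made up 39.5% to 41.6% of their counts in WT and 41.1% to 44.3% in cKO, and mt-Nd1 29.7% to 31.6% and 28.7% to 30.5%, with overlap in each case. mt-Nd4 made up 2.84%, 2.86% and 2.93% in WT and 2.57%, 2.66% and 2.59% in cKO, and mt-Cytb 16.9%, 16.8% and 16.6% against a range of 15.6% to 16.2%. These were the 2 genes whose shares did not overlap (exact permutation p = 0.1 each, the smallest possible).

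Of the 11 nuclear copies 9 were tested, of which 6 were lower and 0 higher in cKO, where 21.8% of all genes were called lower and 21.9% higher, and 3 were not called. Gm13340, the copy of mt-Co1 on chromosome 2, was at 71.0, 69.5 and 65.5 CPM in WT against 43.1, 57.7 and 49.2 in cKO, with a log2 fold change of -0.46 (adjusted p = 0.000621). Gm29216, the copy of mt-Co1 on chromosome 1, had a log2 fold change of -0.41 (adjusted p = 0.00114), close to that of mt-Co1 itself. In both groups mt-Co1 held 92.3% to 92.9% of the counts of gene and copies together, and mt-Nd4 held 94.1% or more. The copy of mt-Co2, Gm28661, had a log2 fold change of -0.37 (adjusted p = 0.00248), that of mt-Atp6, Gm10925, -0.31 (adjusted p = 0.00475), and that of mt-Nd3, Gm28438, -0.26 (adjusted p = 0.0463), a call lost in 6 of 15 alternatives.

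Gm28437, the copy of mt-Co3 in the same chromosome 1 block, had the most counts of the copies and was not called. It was at 110, 114 and 105 CPM in WT against 104, 108 and 103 in cKO, with overlapping groups and a log2 fold change of -0.06 (95% interval -0.16 to 0.05, adjusted p = 0.359). For every 100 counts of Gm28437 there were 57.3, 54.7 and 50.5 counts of Gm29216 in WT and 39.8, 46.4 and 40.7 in cKO, and 44.4, 45.7 and 49.2 counts of Gm10925 in WT and 37.9, 42.9 and 35.2 in cKO. Neither ratio overlapped between groups, and both were computed after the values were seen. The count table does not tell whether a count given to a copy came from nuclear or from mitochondrial RNA.

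Of the other 27 mitochondrial genes 3 passed the filter, and 2 were lower in cKO, where 21.8% of all genes tested were called lower. mt-Nd6, the complex I subunit encoded on the opposite strand, had 359, 529 and 323 counts in WT against 319, 331 and 172 in cKO, with a log2 fold change of -0.55 (SE 0.165, adjusted p = 0.0157). Its groups did not overlap once scaled (18.9 to 28.2 CPM in WT, 11.1 to 17.9 CPM in cKO), but the adjusted p was 0.097 without WT replicate 2 and 0.118 with DESeq2. The protein-coding genes inside the copied block were nearly empty. mt-Co2 had 4 to 8 counts, mt-Nd3 0 to 3, and mt-Nd4l was at 0 in every library. mt-Atp8, for which no annotated copy was found, had at most 1 count. By position (chrM:7766-7969) it lies between mt-Co2 and mt-Atp6 and overlaps the start of mt-Atp6. The copies of these 2 genes leave a gap between chr1:24614651 and chr1:24614885, and sequence outside annotated transcripts was not searched. Whether mt-Atp8 has a copy there is therefore not known. Among 22 tRNA genes, 13 had any count and none exceeded 33. mt-Tl1 (tRNA-Leu), which follows mt-Rnr2, was called lower on 9 to 33 counts (log2 fold change -0.88, adjusted p = 0.0403), a call lost with DESeq2 (0.157) and without WT replicate 2 (0.21), WT replicate 3 (0.0576), cKO replicate 1 (0.159) or cKO replicate 3 (0.0837), whereas mt-Tp (tRNA-Pro) was not called (-0.81, adjusted p = 0.122). Every WT library of mt-Tl1 and mt-Tp was above the filter level of 0.5743 CPM. Below it were cKO replicate 1 of mt-Tl1 (0.505 CPM) and cKO replicates 1 and 3 of mt-Tp (0.449 and 0.193 CPM). Both were thus admitted through the group where they were higher, so the call of mt-Tl1 adds no support. mt-Tm (tRNA-Met) was not tested.

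The nuclear genes that maintain, transcribe and process mitochondrial DNA and RNA were mixed in direction, with 20 of 53 tested lower and 5 higher in cKO (37.7% lower against 21.8% of all genes) and a median log2 fold change of -0.15. Without cKO replicate 1 this was 9 of 53 lower (17.0% against 17.5% of all genes), and without WT replicate 2 it was 13 of 54 (24.1% against 17.4%). RNA processing factors gave 9 lower (47.4% against 21.8% of all genes) and 2 higher of 19. The higher ones, named after their values were seen, were Rexo2 (0.22, adjusted p = 0.00135) and Pnpt1 (0.19, adjusted p = 0.0341). Elac2, which cuts the 3′ end of mitochondrial tRNAs, went from 68.9 to 50.6 CPM (log2 fold change -0.45, adjusted p = 4.2e-05). Trmt10c (-0.33, adjusted p = 0.00101) and 1110008L16Rik, also called Prorp (-0.34, adjusted p = 0.00385), which encode subunits of the enzyme that cuts the 5′ end, were lower too. Its remaining subunit, Hsd17b10, named after its values were seen, was not called (47.5 CPM in WT, 50.9 CPM in cKO, log2 fold change 0.10, adjusted p = 0.152). Lrpprc, which stabilizes mitochondrial mRNAs, went from 145 to 118 CPM (-0.30, adjusted p = 0.00032), and Tbrg4, a FASTK family RNA-binding protein, had a log2 fold change of -0.32 (adjusted p = 0.000328).

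Transcription factors of the mitochondrial genome gave 2 lower of 8, a share near the 21.8% of all genes. Polrmt, the polymerase, went from 35.1 to 28.2 CPM (-0.31, adjusted p = 0.0135), and Tfb2m, which opens the promoter, had a log2 fold change of -0.30 (adjusted p = 0.0375). Tfb2m lost its call in 8 of 15 alternatives and Polrmt in 2. Tfam, which packs the DNA and starts transcription, stood at 52.5 CPM in WT against 50.3 in cKO (-0.06, 95% interval -0.20 to 0.08, adjusted p = 0.48). Of 7 DNA maintenance genes, 2 were lower (28.6%), with Twnk, the helicase, at -0.36 (adjusted p = 0.00174), and 1 was higher, Polg2, the accessory subunit of the DNA polymerase, at 0.46 (adjusted p = 0.0235). Translation factors gave 4 lower (28.6%) and 1 higher of 14. Of 5 nuclear regulators tested, 3 were lower and 1 higher. The largest difference was that of the coactivator gene Ppargc1b, 1 of the 3, at a low level, from 1.25 to 0.574 CPM (-1.11, adjusted p = 0.0118). Its cKO replicate 1 (0.337 CPM) was below the filter level of 0.5743 CPM, and every WT library was above it. Ppargc1b was thus admitted through the group where it was higher, and its call adds no support. The calls of Polg2 and Ppargc1b were lost in 4 of 15 and 2 of 14 alternatives.

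The nuclear-encoded subunits of the respiratory complexes gave 17 higher and 4 lower of 74 tested (5.41% lower against 21.8% of all genes, and 23.0% higher against 21.9%). The higher count was 10 without cKO replicate 3 (13.5% against 18.9% of all genes). It was 11 without WT replicate 2 (14.86% against 17.98%) and 11 with DESeq2 (14.67% against 8.97%). Their median log2 fold change was 0.06 beside -0.47 for the 9 tested members, values given side by side without a test of the difference. Complex I gave 12 higher and 1 lower of 36 (36.1% called against 43.7% of all genes), the lower one being Ndufa12 (-0.49, adjusted p = 0.00504). Complex IV gave 2 higher and 1 lower of 11 (27.3% called), and complex V 2 higher and 1 lower of 14 (21.4%). Complexes II and III had 1 call each, of 4 and 9 tested. The subunit named for each complex is the called one with the largest change, whichever way most calls went. Uqcrq of complex III (-0.39, adjusted p = 0.00118) and Atp5g3 of complex V (-0.21, adjusted p = 0.00169) were lower, while Cox5b of complex IV (0.44, adjusted p = 0.000104) and Sdhc of complex II (0.25, adjusted p = 0.000833) were higher.

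Nuclear genes whose log2 CPM followed the summed level of the 10 members most closely over the 6 libraries were Sytl5 (Pearson r = 0.998), L3mbtl3 (0.993), Frmd6 (0.993), Polr3f (0.991) and Smc1a (0.991), out of 10594 protein-coding genes compared. Sytl5 was at 10.9, 12.8 and 12.2 CPM in WT against 6.06, 10.4 and 6.87 in cKO. As in the members, cKO replicate 2 lay nearest to WT. All points share the same 6 libraries and the summed level is mostly mt-Rnr2, so these values describe likeness only.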

How the data were processed

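RNA-seq libraries were made from 3 WT and 3 Pbrm1 cKO preparations with random and poly(T) priming and strand selection. Per the file headers, the deposited values are raw counts per gene from featureCounts 1.6.4 with reverse-strand counting and GENCODE M18. The submitters' processing notes name cutadapt, HISAT2 and GRCm38.p5, without versions of the aligner. Symbols came from GENCODE M21 of the same build, and 54079 of 54232 IDs (99.7%) matched.

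Counts were scaled by TMM, filtered with filterByExpr and tested with edgeR 4.0.16 (quasi-likelihood F-test, Benjamini-Hochberg adjustment over 15376 genes, threshold 0.05) in R 4.3.3. DESeq2 1.42.0, limma-voom 3.58.1, other scalings and filters, a replicate block and leave-one-out fits were alternatives. Totals were 15390818 to 18947947 counts per library, at which mt-Co3 held 9 to 20 counts and mt-Atp6 1 to 9. Nuclear copies were searched with BLAST 2.17.0 among annotated transcripts, because no genome sequence was used here; this search and the sums of members and copies were added after seeing the files. Shares and ratios were compared with a two-sided exact permutation test over libraries.

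The members and all gene lists were chosen with earlier results of these data known. Named were all members, the other protein-coding mitochondrial genes, the 3 tRNAs with the highest CPM, up to 8 called machinery genes with the largest change plus Polrmt, Tfam, Tfb2m and Lrpprc, the most changed called subunit of each complex, the 6 copies with the highest CPM, and the 5 nuclear genes most like the summed members. Copies named outside this rule (Gm4076) were chosen after their values were seen.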

Additional observations from a re-analysis of the deposited data

How the results depend on the processing

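Of the 10 members, the number called (9) was 7 with DESeq2, 8 with limma-voom and 6 to 8 when 1 library was left out, always lower in cKO. Of all genes, 9.12% were called lower with DESeq2, 21.8% with limma-voom and 17.4% to 22.1% when 1 library was left out. Among 143 alternative values for single members, 0 changed sign. Calls were lost 22 times, all for mt-Co3, mt-Rnr1 and mt-Rnr2. The cause was not tested. Over all genes, replicate numbers did not pair the libraries (correlations of same-numbered deviations -0.024, 0.035 and 0.093). Among the members, replicate 2 was the highest cKO library for 9 and the highest WT library for 6. With a replicate block in edgeR 8 members were called, mt-Co3 being lost at an adjusted p of 0.0711, and 6908 genes were called in all. The 8 had lower adjusted p than without the block, such as 6.6e-06 against 0.00062 for mt-Nd1 and 0.00137 against 0.0396 for mt-Rnr1. Of the other mitochondrial genes 2 were called, but 0 with DESeq2 (1 at an unadjusted p under 0.05), 1 with at least 10 counts in every library, which leaves 1 gene tested, and 0 to 2 when 1 library was left out (0 without WT replicate 2, where 1 had an unadjusted p under 0.05). For the machinery genes 25 calls (47.2%, against 43.7% of all genes) became 14 with DESeq2 and 13 to 21 when 1 library was left out. The 21 calls among nuclear-encoded respiratory subunits (28.4%) became 14 to 25. With 1 library left out, 16.98% to 32.08% of machinery genes were lower, against 17.41% to 22.14% of all genes. The machinery share was the smaller only without cKO replicate 1. Of respiratory subunits, 13.51% to 27.03% were higher in these fits, against 17.98% to 22.88% of all genes. DESeq2 called fewer genes in all, 9.12% lower and 8.97% higher of the 29342 genes with any count. It called 22.2% of machinery genes lower and 14.7% of respiratory subunits higher. The share difference of -0.84 percentage points was -0.10 for protein-coding members only, by construction a smaller share, and -1.11 to -0.65 when 1 library was left out. The ratio of protein-coding to rRNA counts kept its direction throughout. mt-Atp6, mt-Co3 and the tRNA genes held 33 counts or fewer per library, so differences in them were estimated with low precision. Default counting leaves out reads shared with nuclear copies, which bears on the levels of mt-Co1, mt-Atp6, mt-Co3 and mt-Nd4.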
